A study of Homo sapiens with 6 samples.

Results

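The genes described here encode products of the secretory cells of the intestine, and were measured in LoVo, an established human colon adenocarcinoma cell line. They are 10 gene symbols, LYZ, REG4, AGR2, AGR3, TFF1, TFF2, TFF3, SPINK4, MUC2 and SPDEF, chosen by name from 22496 symbols and matched exactly. All 10 were listed in at least 1 library, and 7 had 1 FPKM or more in at least 3 of 6 libraries, the filter on low values that 13092 genes passed. FPKM, the unit of the files, is a fragment count scaled by transcript length and by the mapped total of the library. Poly-A RNA came from 3 LoVo samples with the genotype label non-target, which serve as controls, and 3 with the label SHARPIN knockout, and the labels name no other treatment. Values of a group's 3 libraries are given in the order of replicates 1, 2 and 3. SHARPIN belongs to the complex that builds linear ubiquitin chains, and the series asks how its loss changes gene expression. The sources used here do not say how the knockout was made, whether it is 1 clone or whether replicates were separate cultures, so the spread behind each p-value may be technical.

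Goblet cells secrete the mucus gel of the gut, built on the mucin MUC2 and joined by small trefoil peptides, and Paneth cells of the small intestinal crypt secrete antimicrobial proteins such as lysozyme. Both arise from crypt progenitors that take the secretory fate under the transcription factor ATOH1, and SPDEF then drives goblet and Paneth maturation. The heavily disulfide-bonded cargo of these cells is folded in the endoplasmic reticulum with the help of AGR2, a protein disulfide isomerase relative. Colon cancers often keep a part of this program.

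SHARPIN itself stood at 11.9, 13.9 and 12.9 FPKM in non-target and at 7.55, 11.9 and 18.05 FPKM in knockout, so the groups overlapped (log2 difference -0.12, adjusted p = 0.827 by limma) and the transcript level does not check the labels. The reason for this overlap was not tested. Each direction below follows the labels. Depth, estimated from the smallest steps between values, was 21000000 to 22600000 fragments per library, at which 1 fragment of a 1 kb transcript is worth 0.0443 to 0.0476 FPKM. The libraries most alike were non-target replicates 2 and 3, with a Pearson correlation across genes of 0.997 on log2(FPKM + 1), while non-target replicate 1 correlated with them at 0.9738 and 0.9753. Non-target replicate 1 also held fibroblast transcripts that the others nearly lacked: the collagen genes COL1A1 and COL1A2 stood at 6.60 and 6.12 FPKM there and at no more than 0.29 and 0.139 FPKM in the other 5 libraries. The part of this RNA in the results was not tested, and each tested gene of the set is given below also without that library. All 10 colon epithelial genes checked passed the filter, with the adhesion protein EPCAM at 132 to 198 FPKM and the intestinal transcription factor CDX2 at 16.0 to 24.6 FPKM over the 6 libraries. Among them KRT19 and KRT20 rose and VIL1 and CDX1 fell. KRT20 did not pass once either of non-target replicates 2 and 3, or the second knockout library, was dropped (adjusted p up to 0.109).

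Most of these secretory products were lower in the knockout libraries, and 1 was higher. By limma on log2(FPKM + 1) with p-values adjusted over all 13092 genes tested, LYZ, REG4, AGR2, AGR3, TFF2 and MUC2 fell and SPINK4 rose, while TFF1, TFF3 and SPDEF lay below the filter and were not tested. Across all genes tested, 5.93% fell and 6.26% rose (12.2% in all). The filter itself favours a gene that is high in only 1 group. LYZ, REG4 and AGR2 reached 1 FPKM in all 6 libraries, TFF2 and MUC2 in 3 non-target and 2 knockout libraries, AGR3 in 3 non-target libraries only, and SPINK4 in 1 non-target and 3 knockout libraries. With no filter, all 10 genes were tested among 22484 symbols, of which 4.74% fell and 3.14% rose (7.89% in all). Then 5 fell and 1 rose, MUC2 no longer passed (adjusted p = 0.0661), and the median log2 difference of the 10 was -0.94, against 0.00 over all symbols. The values of the 3 knockout libraries lay wholly below the 3 non-target ones for 7 of the 10 genes and wholly above them for 1, where 15.1% and 12.1% of all symbols did so. TFF1 counts among the 7 only because 0.467 FPKM in non-target replicate 1 stood just above 0.461 FPKM in knockout replicate 1. The 10 genes were chosen with earlier results of these data known, so these contrasts with all symbols are not independent support. In these bulk samples, fewer cells making a product and less RNA per cell cannot be told apart.

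**Figure D1:**
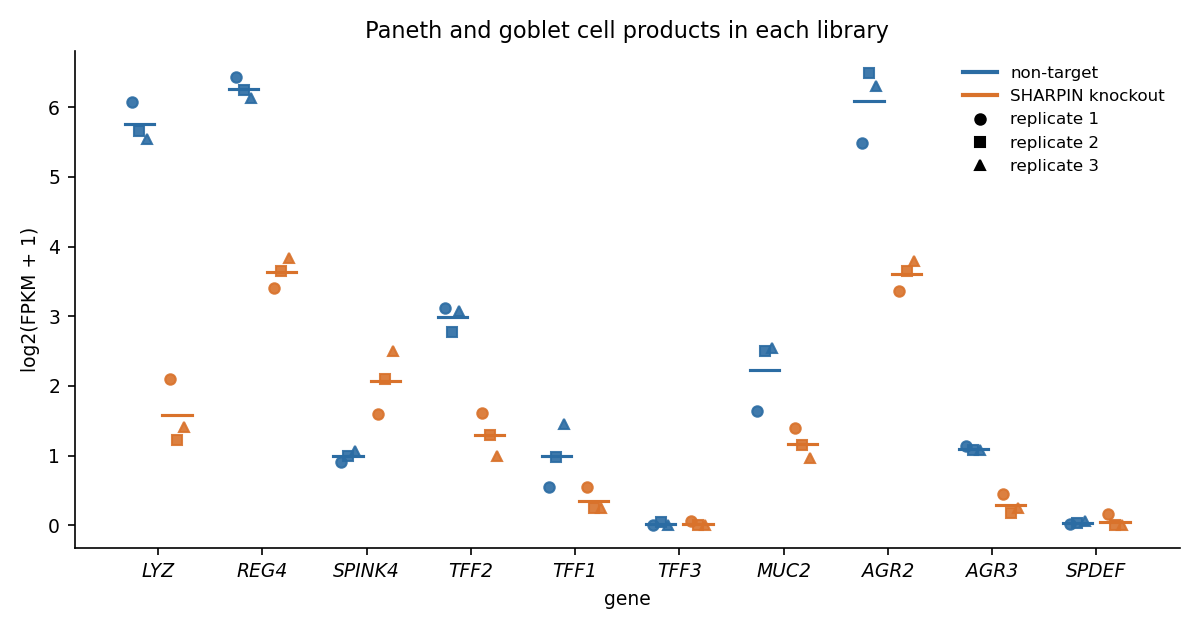
Each point is 1 library's level of 1 gene on the log2(FPKM + 1) scale, with non-target in blue, SHARPIN knockout in orange, point shape for the replicate number and a bar for the mean of 3. LYZ, REG4 and AGR2 are the highest genes in non-target and are lower in all 3 knockout libraries, SPINK4 is higher in all 3, and TFF3 and SPDEF sit near 0 in both groups.

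In non-target cells the mean levels formed several tiers. REG4, AGR2 and LYZ stood at 76.3, 70.4 and 53.8 FPKM, and their values overlapped in sequence from REG4 to AGR2 to LYZ. TFF2 and MUC2 followed at 6.99 and 3.87 FPKM, each apart from its neighbours in the order. AGR3, TFF1 and SPINK4 overlapped at 1.14, 1.06 and 0.987 FPKM, and SPDEF and TFF3 were near 0. In knockout cells REG4 and AGR2 overlapped at 11.5 and 11.3 FPKM, and SPINK4 came next at 3.32 FPKM, overlapping LYZ. Summed over the 10 genes, the level was 208, 227 and 209 FPKM in non-target and 28.9, 30.7 and 34.8 FPKM in knockout. As TPM, which scales each library to the same total, the sums were 492, 538 and 485 in non-target and 68.0, 73.7 and 66.5 in knockout. LYZ, REG4 and AGR2 made up 92.2% to 94.1% of that sum in non-target and 76.8% to 80.0% in knockout libraries, while the share of SPINK4 was 0.418% to 0.525% and 7.01% to 13.3%.

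LYZ encodes lysozyme, the enzyme of Paneth granules that cuts bacterial cell walls and is also made by macrophages. It lies on chromosome 12 at 69742161 to 69748014 (GRCh37, plus strand). LYZ stood at 66.3, 49.6 and 45.6 FPKM in non-target and at 3.285, 1.34 and 1.66 FPKM in knockout. The highest knockout library was far below the lowest non-target one, and replicate 1 was the highest in both groups. The means, 53.8 ± 11.0 and 2.1 ± 1.04 FPKM (SD, n = 3), differed 25.7-fold. The log2 difference, knockout minus non-target, was -4.18 ± 0.25 (SE; limma, adjusted p = 2.61e-05), the second largest decrease among the genes tested, and -4.02 without non-target replicate 1. Of 11 macrophage and blood cell genes, 1 passed the filter, the lysosomal protein CD68, which did not pass the test (19.0 to 25.0 FPKM in non-target and 29.6 to 34.98 in knockout, adjusted p = 0.085, and 0.0156 with a replicate block). CD163, TYROBP, AIF1 and S100A8 stood at 0 in all 6 libraries and the leukocyte antigen PTPRC at no more than 0.036 FPKM. S100A9, a calcium-binding protein of neutrophils and monocytes, lay below the filter and was lower in knockout, as LYZ was, at 0.309, 1.57 and 1.70 FPKM in non-target and 0.079, 0 and 0 FPKM in knockout. The summed level of the 11 was 20.8 to 25.4 FPKM in non-target and 29.7 to 35.2 FPKM in knockout libraries. CD68 made up most of this sum in every library, so it does not speak for blood cell genes as a set. An antisense transcript annotated at the LYZ 3′ end shares 599 exon bases with it, and the sources used here do not say whether the counting used strand.

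REG4 encodes a secreted C-type lectin of the regenerating family, made by secretory and enteroendocrine cells and often raised in colorectal cancer. It lies on chromosome 1 at 120336640 to 120354203 (minus strand). It stood at 85.1, 74.9 and 69.0 FPKM in non-target and at 9.62, 11.5 and 13.3 FPKM in knockout. All 3 knockout libraries lay far below all non-target ones. The means of 76.3 ± 8.17 and 11.5 ± 1.83 FPKM (SD, n = 3) differed 6.66-fold, and the log2 difference was -2.64 ± 0.18 (SE; limma, adjusted p = 3.93e-05), or -2.56 without non-target replicate 1. The ratio of FPKM, REG4 over LYZ, was 1.28 to 1.51 in non-target and 2.93, 8.58 and 8 in knockout. The other regenerating genes on the Paneth list described below, REG1A, REG1B, REG3A and REG3G, did not exceed 0.11 FPKM in any library.

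SPINK4 encodes a small Kazal-type serine protease inhibitor secreted by goblet cells, and was the member that rose. SPINK4 stood at 0.869, 0.992 and 1.10 FPKM in non-target and at 2.03, 3.29 and 4.64 FPKM in knockout. All 3 knockout values lay above all non-target values, with a 2.29-fold spread among the knockout libraries. The means were 0.987 ± 0.115 and 3.32 ± 1.3 FPKM (SD, n = 3), and the log2 difference was 1.08 ± 0.23 (SE; limma, adjusted p = 0.0128). The call was lost without non-target replicate 1 (log2 difference 1.03, adjusted p = 0.0526) or knockout replicate 2 (1.06, adjusted p = 0.0639). SPINK4 lies on chromosome 9 at 33218363 to 33248565 (plus strand), and its annotated span overlaps BAG1 on the other strand with 0 shared exon bases. BAG1 stood at 5.86 to 9.70 FPKM in non-target and 3.97 to 12.2 FPKM in knockout libraries, so its groups overlapped.

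The trefoil factors are small secreted peptides that carry the disulfide-rich trefoil fold, travel with mucins and help repair the mucosa. Their 3 genes lie side by side on chromosome 21 on the minus strand, TFF3 at 43731777 to 43735519, TFF2 at 43766466 to 43771106 and TFF1 at 43782391 to 43786644. TFF2, usually a product of gastric mucous neck cells, was the most abundant of them. It stood at 7.68, 5.84 and 7.46 FPKM in non-target and at 2.07, 1.46 and 0.986 FPKM in knockout. The groups did not overlap, the means were 6.99 ± 1.01 and 1.5 ± 0.543 FPKM (SD, n = 3), and the log2 difference was -1.69 ± 0.21 (SE; limma, adjusted p = 0.000716), or -1.63 without non-target replicate 1.

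TFF1, the trefoil factor of gastric pit cells, varied more. It stood at 0.467, 0.976 and 1.74 FPKM in non-target and at 0.461, 0.19 and 0.187 FPKM in knockout. Non-target replicate 1 and knockout replicate 1 were nearly level, and the other non-target libraries were higher than every knockout one. With no filter the log2 difference was -0.65, with a 95% interval of -1.20 to -0.10 (limma, adjusted p = 0.158). TFF3, the trefoil factor that goblet cells of the intestine normally secrete, was listed only at 0.033 FPKM in non-target replicate 2 and 0.043 FPKM in knockout replicate 1, about the worth of 1 fragment, and at 0 elsewhere. Of 10 further gastric mucous cell genes, among them MUC5AC, MUC6 and GKN1, 0 passed the filter and 10 stayed under 1 FPKM in every library, and their sum was 1.03 to 1.40 FPKM in non-target and 0.609 to 0.685 FPKM in knockout libraries.

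MUC2 encodes the gel-forming mucin of intestinal mucus. It lies on chromosome 11 at 1074875 to 1104416 (plus strand). The level was 2.12, 4.68 and 4.81 FPKM in non-target and 1.63, 1.22 and 0.947 FPKM in knockout. Non-target replicate 1 held less than the other non-target libraries and came closest to the knockout ones. The means were 3.87 ± 1.52 and 1.26 ± 0.342 FPKM (SD, n = 3), and the log2 difference was -1.06 ± 0.26 (SE; limma, adjusted p = 0.0252). The call was lost without non-target replicate 2 or 3 or knockout replicate 2 or 3 (adjusted p = 0.078, 0.0824, 0.0948 and 0.105), and without non-target replicate 1 the difference was -1.35 (adjusted p = 0.00431). Among other gel-forming mucin genes, MUC5AC, MUC5B and MUC6 did not exceed 0.696, 0.028 and 0.061 FPKM. SPINK4 over MUC2, a ratio of 2 goblet products within a library, was 0.41, 0.212 and 0.229 in non-target and 1.25, 2.69 and 4.90 in knockout.

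AGR2 and AGR3 encode neighbouring protein disulfide isomerases of the endoplasmic reticulum, and AGR2 is needed for MUC2 folding in mouse intestine. They lie 26.0 kb apart on chromosome 7 (minus strand), AGR2 at 16831435 to 16873057 and AGR3 at 16899036 to 16921611. AGR2 stood at 43.99, 88.7 and 78.5 FPKM in non-target and at 9.32, 11.6 and 12.9 FPKM in knockout. Non-target replicate 1 was the lowest non-target library and still above every knockout library. The means were 70.4 ± 23.4 and 11.3 ± 1.80 FPKM (SD, n = 3), with a log2 difference of -2.49 ± 0.26 (SE; limma, adjusted p = 0.000278), or -2.79 without non-target replicate 1. AGR3 was far lower, at 1.20, 1.10 and 1.12 FPKM in non-target and 0.358, 0.125 and 0.183 FPKM in knockout. Its groups did not overlap, and the log2 difference was -0.81 ± 0.14 (SE; limma, adjusted p = 0.00374), or -0.79 without non-target replicate 1. The pseudocount shrinks that value, which was -2.01 with a pseudocount of 0.1, while AGR2 gave -2.58. The ratio AGR2 over AGR3 was 36.8, 80.4 and 70.0 in non-target and 26.0, 92.8 and 70.4 in knockout, and the means differed 6.25-fold for AGR2 and 5.14-fold for AGR3. The ratio was lowest in replicate 1 of each group.

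SPDEF encodes the ETS-family transcription factor of goblet and Paneth maturation. It was listed at 0.009, 0.026 and 0.048 FPKM in non-target, at 0.117 FPKM in knockout replicate 1 and at 0 in knockout replicates 2 and 3. The groups overlapped and neither held a level that this depth can measure well. ATOH1, the factor above it, did not exceed 0.045 FPKM in any library.

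**Figure D2:**
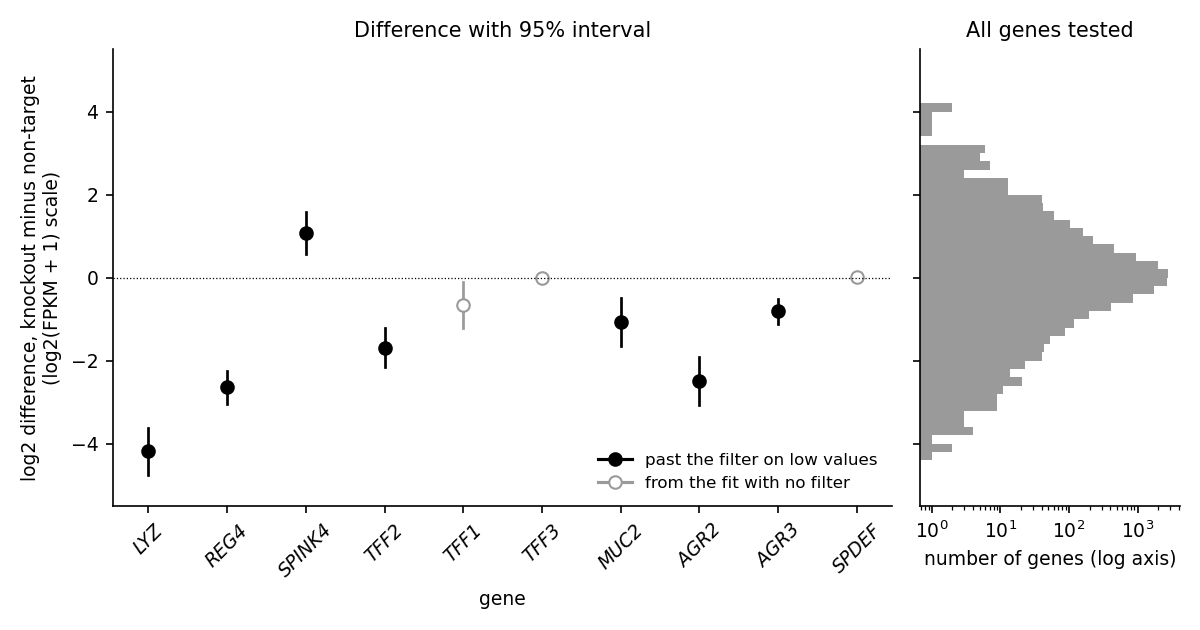
The left panel shows each gene's log2 difference, knockout minus non-target, on the log2(FPKM + 1) scale with its 95% interval, filled for genes past the filter and open grey for the fit with no filter. The right panel counts all 13092 genes tested along the same axis with a log scale of gene number, and LYZ at -4.18 lies at its lower end while SPINK4 at 1.08 is the only interval wholly above 0.

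The calls for 5 of the 7 genes held in every fit without 1 library. These fits kept the genes that passed the filter with all 6 libraries. AGR3 reached 1 FPKM in 3 non-target libraries only, so a filter redone without 1 of those would not test it. LYZ, REG4, AGR2, AGR3 and TFF2 kept an adjusted p of at most 0.026 when each library in turn was left out, with log2 differences from -4.44 to -4.00 for LYZ, -2.74 to -2.53 for REG4, -2.79 to -2.30 for AGR2, -0.89 to -0.76 for AGR3 and -1.85 to -1.53 for TFF2. Of the 7 genes, 6 passed without non-target replicate 1, and 7 passed without both replicate 1 libraries. Of all 13092 genes, 1369 and 2280 passed in these 2 fits, against 1597 with all 6 libraries.

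**Figure D3:**
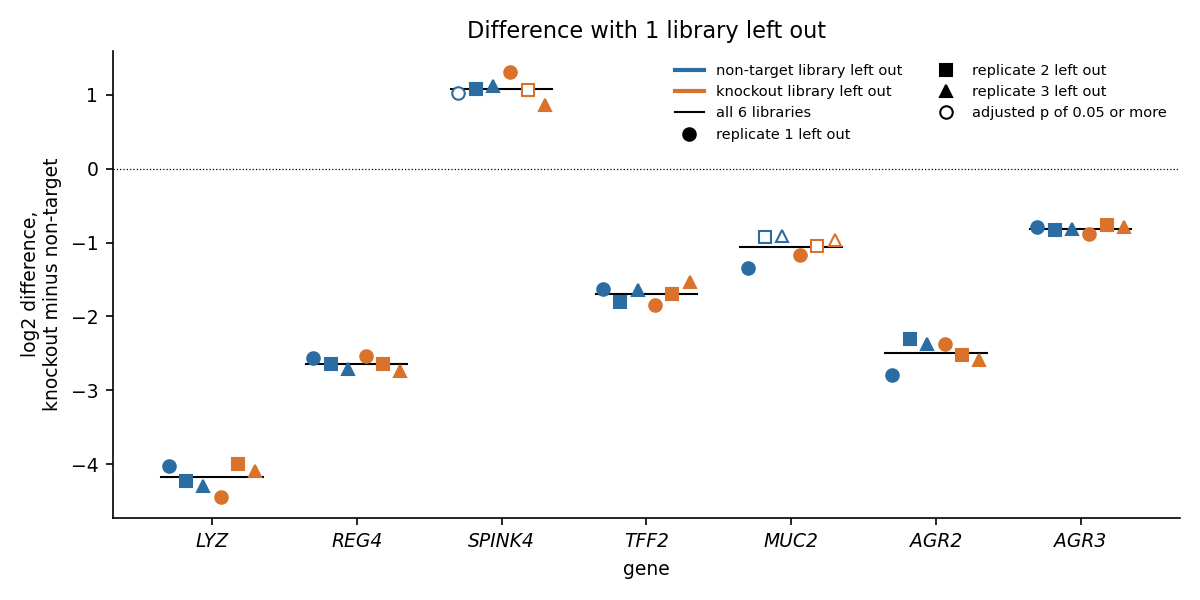
Points are the log2 difference of each tested gene with 1 library left out, blue for a non-target and orange for a knockout library, with the shape giving the replicate number and the black line the value with all 6. Open points have an adjusted p of 0.05 or more and occur for SPINK4 (2 of 6) and MUC2 (4 of 6).

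The promoters of AGR2, MUC2 and SPINK4 are shown because AGR2 and MUC2 fell and SPINK4 rose, and because these windows hold 0 bases of annotated exons. Each is the 250 bases before the RefSeq start (table build GRCh38.p14), 5′ to 3′ on the gene's strand. Exact matches place them on GRCh37 at chr7:16844624-16844873 (minus strand), chr11:1074624-1074873 (plus) and chr9:33239915-33240164 (plus). The AGR2 and SPINK4 windows lie inside the annotated gene spans given above, which reach farther upstream than these RefSeq starts. Capitals mark matches on either strand to TTTATNG, the core letters of CDX sites, or CAGCTG, an E-box of bHLH factors such as ATOH1.
AGR2: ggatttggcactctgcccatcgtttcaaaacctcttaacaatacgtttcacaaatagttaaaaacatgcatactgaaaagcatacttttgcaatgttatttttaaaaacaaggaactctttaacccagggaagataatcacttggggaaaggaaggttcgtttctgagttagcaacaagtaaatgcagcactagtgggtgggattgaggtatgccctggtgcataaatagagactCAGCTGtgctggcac
MUC2: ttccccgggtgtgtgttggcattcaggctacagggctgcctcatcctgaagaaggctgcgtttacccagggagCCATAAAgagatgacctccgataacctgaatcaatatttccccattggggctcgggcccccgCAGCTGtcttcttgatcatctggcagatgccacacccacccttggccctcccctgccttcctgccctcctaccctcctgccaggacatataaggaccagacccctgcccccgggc
SPINK4: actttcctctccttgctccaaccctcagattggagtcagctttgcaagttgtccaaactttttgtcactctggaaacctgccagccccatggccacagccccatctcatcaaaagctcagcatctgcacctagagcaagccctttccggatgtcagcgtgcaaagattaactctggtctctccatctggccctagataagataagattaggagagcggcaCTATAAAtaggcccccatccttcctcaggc
The RefSeq promoter table holds 6 of the 10 genes, namely these and AGR3, REG4 and SPDEF. TTTATNG occurred in 4 of the 6 (AGR3, MUC2, REG4 and SPINK4) and in 9.29% of all 27305 promoter windows of this length, and CAGCTG occurred in 2 (AGR2 and MUC2) and in 13.8% of all. In AGR3 and SPINK4 the match reads CTATAAA and so contains the TATA box letters TATAAA, which 7.17% of all windows hold on the gene's strand. The FOXA letters TGTTTAC and the HNF4 letters CAAAGTCCA occurred in 0 of the 6, and in 2.98% and 0.293% of all. The gene that rose and genes that fell share the CDX letters, and a match is a description of the letters only.

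Some genes near the trefoil cluster also fell. Across all genes tested 5.93% fell and 6.26% rose. Near the AGR pair 0 of 4 tested genes fell, too few to show a difference between the regions, which was not tested. Within 500 kb of the TFF genes, 8 other genes were tested, of which 3 fell and 1 rose. Those that fell are the nearest tested genes on one side: TMPRSS3, a membrane serine protease (4.82 to 1.63 FPKM in mean, log2 difference -1.16, adjusted p = 0.00914), RSPH1, a cilium component (-0.92, adjusted p = 0.00895), and SLC37A1, a sugar phosphate transporter (-0.88, adjusted p = 0.0212). Farther on the same side PDE9A, a cyclic GMP phosphodiesterase, rose (0.95, adjusted p = 0.0423). SLC37A1 and PDE9A lost the call in 4 and 5 of the 6 fits without 1 library (adjusted p up to 0.122 and 0.144), and TMPRSS3 did without knockout replicate 2 (0.0514). Within 500 kb of the AGR pair 4 other genes were tested, and 1, the aryl hydrocarbon receptor gene AHR, rose (28.8 to 71.1 FPKM in mean, log2 difference 1.25, adjusted p = 0.0167), though not without knockout replicate 2 (0.0872). The genes on the other side, ANKMY2, BZW2 and TSPAN13, had log2 differences of -0.45, -0.08 and 0.03 and did not pass.

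**Figure D4:**
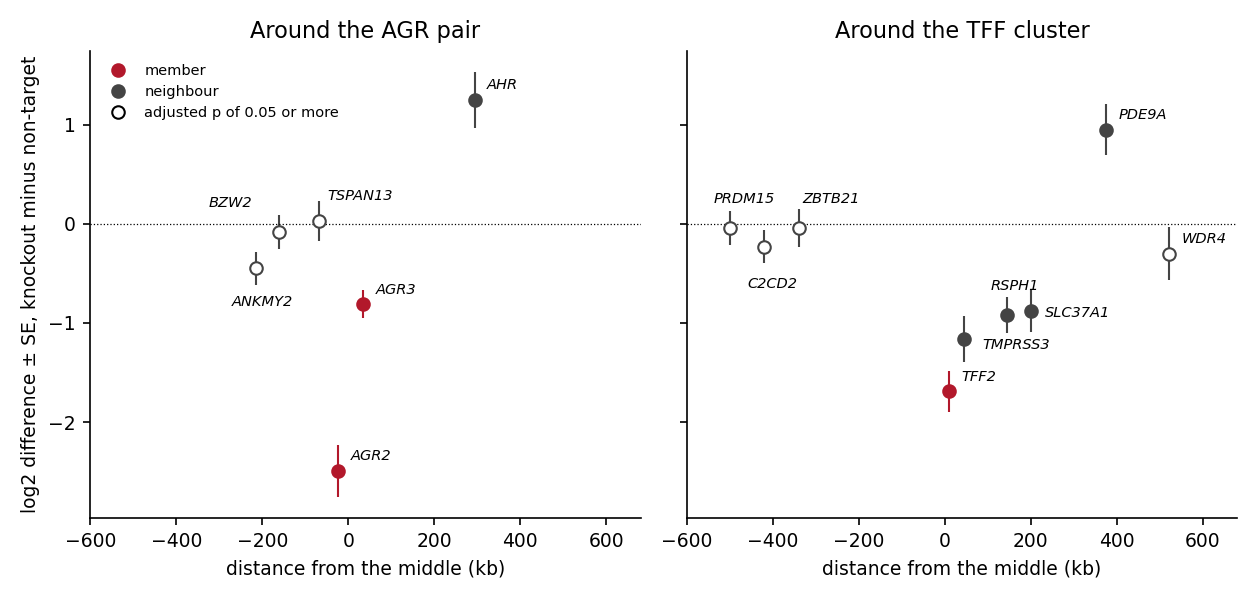
Tested genes within 500 kb of the AGR pair (left) and the TFF cluster (right), placed by distance from the middle of the members in kb, with the log2 difference and its SE. Members are red, neighbours grey and open points did not pass. TMPRSS3, RSPH1 and SLC37A1 lie below 0 next to TFF2, and the 4 neighbours of AGR2 and AGR3 range from -0.45 to 1.25.

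The other genes of the secretory program moved both ways. These lists leave out the 10 members and, like them, were chosen with earlier results of these data known. Over all lists 20 of 69 tested genes passed. Of all 13092 genes tested, 12.2% passed (5.93% lower and 6.26% higher in knockout), the shares to set beside each list below. Without non-target replicate 1, 17 passed over the lists and 1369 over all genes. With a replicate block these counts were 32 and 3309. Of 17 secretory lineage regulators, 12 were tested, 3 fell, 2 rose and 7 did not pass, with a median log2 difference of -0.02 against 0.02 over all genes tested (3 rose and 4 fell with a replicate block). The forkhead factors FOXA2 and FOXA1, which open chromatin in gut endoderm, went from 6.14 ± 0.397 to 1.97 ± 0.790 FPKM (SD, n = 3; limma, adjusted p = 0.0031) and from 6.97 ± 0.618 to 2.86 ± 0.947 FPKM (adjusted p = 0.00801). ELF3, an epithelial ETS factor, went from 41.8 ± 1.56 to 20.5 ± 2.27 FPKM (adjusted p = 0.00269). KLF4, needed for goblet cell differentiation in mouse colon, rose from 24.3 ± 1.49 to 71.7 ± 2.47 FPKM (adjusted p = 0.000193). SOX9, a crypt factor required for Paneth cells, rose by 0.70 on the log2 scale (adjusted p = 0.039), but lost the call in 5 of the 6 fits without 1 library (up to 0.129).

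Of 26 other goblet cell products, 10 were tested, 2 fell, 2 rose and 6 did not pass, and 15 stayed under 1 FPKM in every library, among them CLCA1, ZG16, FCGBP and RETNLB. CAPN8, a calpain of mucus cells, fell from 5.85 ± 1.62 to 0.805 ± 0.370 FPKM (SD, n = 3; limma, adjusted p = 0.000745). GALNT7, which adds sugars to mucins, fell by 0.62 on the log2 scale (adjusted p = 0.0481), and lost the call without each library except knockout replicate 2 (up to 0.203). SYTL2, a granule-docking protein, rose from 3.06 ± 1.20 to 9.32 ± 2.45 FPKM (adjusted p = 0.0064), and KLF4 stands on this list too. With a replicate block 3 rose and 4 fell.

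Of 19 other Paneth cell products, 6 were tested, 2 fell, 1 rose and 3 did not pass, and 13 stayed under 1 FPKM. The defensins DEFA5 and DEFA6, which define Paneth cells, were at 0 in all 6 libraries. PLA2G2A, an antibacterial phospholipase, was at 2.75, 2.82 and 2.67 FPKM in non-target and 0.784, 0.626 and 0.714 FPKM in knockout (limma, adjusted p = 0.000837). MMP7, the matrilysin that activates defensins in mouse, was at 3.75, 3.22 and 2.76 FPKM in non-target and 0.362, 0.083 and 0.123 FPKM in knockout (adjusted p = 0.000138). LCN2, an iron-scavenging antibacterial lipocalin, rose from 64.5 ± 8.46 to 209 ± 95.7 FPKM (SD, n = 3; adjusted p = 0.0123), and lost the call without knockout replicate 2 (0.077). Both PLA2G2A and MMP7 fell together with LYZ, while LCN2 moved the other way.

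Of 10 membrane mucins, 2 were tested. MUC13, a transmembrane mucin of the gut surface, fell from 36.5 ± 2.28 to 10.1 ± 2.07 FPKM (SD, n = 3; limma, adjusted p = 0.000224), and MUC3A did not pass. Of 30 genes of protein folding in the endoplasmic reticulum, the machinery to which AGR2 and AGR3 belong, 27 were tested, 1 rose, 1 fell and 25 did not pass, with a median log2 difference of 0.28 (5 rose and 1 fell with a replicate block). The chaperone CALR rose by 0.97 (adjusted p = 0.0367) and its membrane-bound relative CANX fell by 0.68 on the log2 scale (adjusted p = 0.0319). Each lost the call in 3 or 4 of the fits without 1 library (adjusted p up to 0.119 and 0.167). XBP1, the factor of the unfolded protein response, stood at 87.3 to 94.8 FPKM in non-target and 84.6 to 97.3 FPKM in knockout libraries. Markers of the other secretory types were low: of 12 enteroendocrine and 9 tuft cell genes, 1 each was tested, and CPE and POU2F3 did not pass (adjusted p = 0.336 and 0.257). Of 6 fibroblast genes, the matrix protein LUM was tested and fell from 6.67 ± 1.42 to 0.245 ± 0.124 FPKM (adjusted p = 5.83e-05), and it was not highest in non-target replicate 1 (5.03, 7.52 and 7.45 FPKM in non-target). The summed level of the 6 was 7.70 to 18.6 FPKM in non-target and 0.20 to 0.749 FPKM in knockout libraries.

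**Figure D5:**
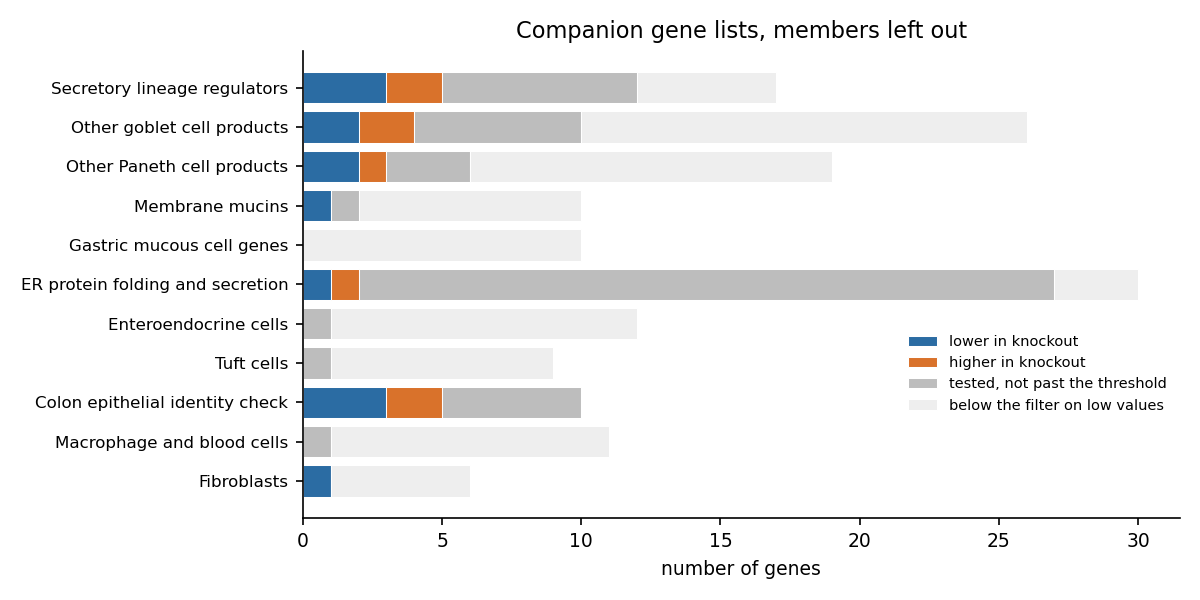
Bars count the genes of each list that were lower in knockout (blue), higher (orange), tested without passing (grey) or below the filter (pale). Blue and orange stand side by side in the regulator, goblet and Paneth lists, and 25 of the 27 tested folding genes did not pass.

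By pattern over the 6 libraries, the genes most like LYZ among 8072 with a mean of at least 5 FPKM were LGALS4, TPST1, MYO1A, HBE1 and GPR35 (Pearson's r of 0.9995 to 0.998 on log2(FPKM + 1)). LGALS4, an intestinal galectin, stood at 50.3, 39.9 and 37.1 FPKM in non-target and 3.245, 1.79 and 1.75 FPKM in knockout, the same order of libraries as LYZ except between the lowest 2. Those most like SPINK4 were SLC6A8, TINAGL1, FOXD1, TXNDC11 and CEP131 (0.998 to 0.995), each highest in knockout replicate 3. That library also had the largest FPKM total, 522919 against 416852 to 431264 in the others. The part of this total in the shared order was not tested. The genotypes form 2 clusters that set most of these values, 356 genes exceeded 0.9 with LYZ and 565 with SPINK4, and the measure only ranks genes.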

How the data were processed

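Total RNA of 6 LoVo samples was enriched for poly-A RNA and sequenced from libraries that mark the second strand, per the labels' protocols. The authors trimmed and filtered reads, aligned them with TopHat2 2.1.1 to hg19 and computed FPKM with STAR 2.7.10b, per the submitters' processing notes. The deposited FPKM values carry no counts, and the sources used here do not say how shared fragments were assigned or whether strand was used. Symbols missing from a library were set to 0. Of 22496 symbols, 89.0% matched GENCODE on GRCh37, the build of the files, from which positions come.

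The test was limma 3.58.1 in R 4.3.3 (trend, robust) on log2(FPKM + 1), two-sided, with Benjamini-Hochberg adjustment over the 13092 genes that reached 1 FPKM in 3 or more libraries and a threshold of 0.05. The pseudocount of 1 understates the change of low genes. Named genes are the members, and in each list up to 4 genes past the threshold with the largest difference, or else that with the smallest p. For LYZ and SPINK4 the 5 genes with the highest Pearson correlation are named, and near the AGR and TFF genes those within 500 kb. SOX9 and genes quoted at low FPKM were named after their values were seen. A gene of the lists is not reported here. Members and lists were chosen with earlier results of these data known.

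Depth came from FPKM times length of genes with 1 transcript, where 45 to 59 of 197 to 233 low values per library lay on the best step, against 5 or 6 at the median step size. It is thus an estimate, and no counting interval is given. Deviations from the group means correlated across genes between same-numbered libraries at 0.547, 0.309 and 0.331. Non-target replicate 2 matched knockout replicate 3 as well (0.32), so any pairing rests on replicate 1. Deviations cancel out within a group, so these values are not separate evidence. The main fit did not pair libraries, and a replicate block was fitted as an alternative setting. On simulated data with 200 changed genes among 13092, the test found 81.0% of 2-fold and 99.2% of 4-fold changes in FPKM + 1. Of its calls, 7.09% were unchanged genes. The simulated noise was independent between libraries and had the variances of the fit, so it lacked the likeness of non-target replicates 2 and 3. The data gave 1597 calls, far more than 200. These rates thus describe the model and not these libraries.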

Additional observations from a re-analysis of the deposited data

How the results depend on the processing

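All 7 called genes of the set kept their direction in every setting that tested them. The settings were pseudocounts of 0.1 and 0.5, filters of none or of 5 FPKM in mean, TPM and median-ratio scaling, limma without trend, array weights, a replicate block, each library left out, both replicate 1 libraries left out, and non-target replicates 2 and 3 counted as 1 sample. Fits on fewer libraries kept the genes of the full fit. LYZ, REG4 and AGR2 passed in all 17 settings, and AGR3 and TFF2 in the 16 that tested them. A mean of at least 5 FPKM, which leaves out low genes, tested 3 genes of the set and called 3. Of all 8547 genes tested in that setting 865 were called, and 11 over the companion lists. MUC2 also lost the call when non-target replicates 2 and 3 counted as 1 sample (adjusted p = 0.0792), which gave 944 calls over all genes.

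With 1 library left out, calls ranged from 5 to 7 in the set, 15 to 22 over the companion lists (20 with all libraries) and 911 to 1970 over all genes (1597). The replicate block called all 7 genes and changed no call of the set, with 3309 calls over all genes and 32 over the companion lists. Array weights gave 5269 and 42. The cause of these higher counts was not tested. By limma, LYZ had an adjusted p of 5.71e-115 with the block and 2.61e-05 without it. The former is far smaller than 6 libraries can carry, so the block's calls are not added support. SHARPIN ranged from -0.41 to 0.17 with 1 library left out, and turned to 0.17 on the log2 scale without knockout replicate 1 and to 0.12 without both replicate 1 libraries, from -0.12. Levels of about 0.04 FPKM, as for TFF3 and SPDEF, are near 1 fragment at the estimated depth, so a difference there was not detectable.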

Other observations

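Of the genes on the regulator, goblet, Paneth, membrane mucin, gastric and folding lists, 55 lay below the filter on low values. The groups did not overlap in some of them: FCGBP, ST6GALNAC1, PIGR, MUC1, MUC12, MUC16, MUC6 and ERN2 were lower in knockout (8) and SERPINA1, NOD2 and PGC higher (3). In 27 the groups overlapped, and 17 were at 0 in all libraries. This tally was made after the values were seen and carries no test. PIGR, the receptor that carries antibodies into the lumen, stood at 0.692, 0.752 and 0.701 FPKM in non-target and 0.092, 0.099 and 0.068 FPKM in knockout. ST6GALNAC1, which adds sialic acid to mucin sugars, stood at 1.86, 0.536 and 0.403 FPKM in non-target and 0.054, 0 and 0.107 FPKM in knockout. The membrane mucin MUC1 stood at 0.905, 1.15 and 1.299 FPKM and at 0.126, 0.288 and 0.332 FPKM. ERN2, the stress sensor of mucus-secreting cells, stood at 0.376, 0.224 and 0.267 FPKM and at 0.101, 0.063 and 0.083 FPKM. SERPINA1, a protease inhibitor, was higher in knockout, at 0.244, 0.38 and 0.215 FPKM against 0.666, 0.71 and 0.939 FPKM. NOD2, a sensor of bacterial cell walls in Paneth cells, was also higher, at 0.303, 0.299 and 0.199 FPKM against 0.574, 0.873 and 0.723 FPKM. FCGBP, MUC12, MUC16, MUC6 and PGC did not exceed 0.178 FPKM in any library. Over all 22484 symbols above 0 in some library, 15.1% were lower and 12.1% higher in this way. The 55 include the 17 at 0, so the 2 bases differ.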
